A study of Mus musculus with 10 samples.

Results

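Histone genes were selected in the deposited expression table by gene symbol: every row whose symbol begins with Hist1h, Hist2h, Hist3h, Hist4h, H2af, H3f or H1f was taken, leaving out H1fnt. This gave 31 genes of 15507 in the table. GENCODE has 90 genes that fit the same rule, of which 31 (34.4%) were listed here. The others could not be assessed. Of these, 29 had enough reads to be tested among 15389 tested genes. The members were split by symbol into 3 testis variants, 12 widely expressed variants and 16 replication-dependent genes, of which 14 were tested. The read cutoff was reached in libraries of both genotypes by 28 members and in KI libraries alone by 1, Hist1h2ag.

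RNA sequencing libraries were made from the testis germ cells of 5 wild-type (WT) and 5 knock-in (KI) mice aged 45 days, with 1 library per mouse. KI mice carry a human GRTH gene with the R242H mutation in place of mouse Ddx25, the gene for the testis RNA helicase GRTH. The libraries were built from mRNA, and the cell fraction holds spermatogonia, spermatocytes and spermatids. Recovered reads on listed genes numbered 13323024 to 16422347 in WT libraries and 12722086 to 15500582 in KI libraries.

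Ddx25 itself had normalized counts of 7615, 7782, 5198, 11101 and 9458 in WT libraries 1 to 5 and of 146, 194, 161, 2.88 and 1.84 in KI libraries 1 to 5. Every KI library was below every WT library. KI libraries 4 and 5 held far fewer Ddx25 reads than KI libraries 1 to 3. Reads were aligned to the mouse genome, so these values cannot be taken as the level of the human transcript in KI mice. The paper describes KI mice as lacking the phosphorylated form of GRTH.

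Core histones H2A, H2B, H3 and H4 form the nucleosome, and linker histone H1 binds the DNA between nucleosomes. Replication-dependent histone genes are transcribed in S phase, and most of their mRNAs end in a stem-loop in place of a poly(A) tail, so mRNA libraries that select poly(A) capture them in part. Variants such as H3.3 and H2A.Z are made throughout the cell cycle, and male germ cells use testis variants before transition proteins and protamines replace most histones in elongating spermatids.

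A gene was called differentially expressed at a limma adjusted p under 0.05 with a change of at least 1.5-fold. Among members, 2 of 29 were called higher in KI, against 6.13% of all tested genes, and 0 of 29 were called lower, against 8.22% of all tested genes. With the libraries paired by number as a replicate block, 4 of 29 were called higher, against 6.93% of all tested genes, and 1 lower, against 8.73%. With no filter on reads, 2 of 31 were called higher, against 6.16% of all genes, and 0 lower, against 8.24%. By unadjusted limma p under 0.05, 6 members were higher, against 16.2% of tested genes, and 4 were lower, against 18.4%. The 0 lower held by edgeR and DESeq2, against 1293 and 1291 lower of 15389 tested genes. It became 1 without KI library 2 or KI library 3, against 1271 and 1265 lower of 15421 tested genes. By adjusted p alone, 4 members were higher, against 9.65% of tested genes, and 3 were lower, against 13.3%. Every KI library lay above every WT library for 4 members, against 6.80% of tested genes, and below for 1 member, against 10.9%. The median log2 fold change was 0.10 over the 29 tested members, 0.05 over all 31 with no filter, and 0.03 over all tested genes. Scaled to library totals, the median of all tested genes became 0.25 and 73.1% of called genes were higher against 42.7% before. With that scaling 6 members were called higher, H1f0, H2afb3, Hist1h1c, Hist1h1t, Hist1h2ag and Hist1h4h, against 13.9% of all tested genes, and 0 lower, against 5.13%. Relative to that median, the class medians were 0.51 for testis variants, 0.10 for replication-dependent genes and -0.03 for widely expressed variants. Fewer cells of a type and less RNA per cell cannot be told apart in these bulk libraries.

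**Figure D1:**
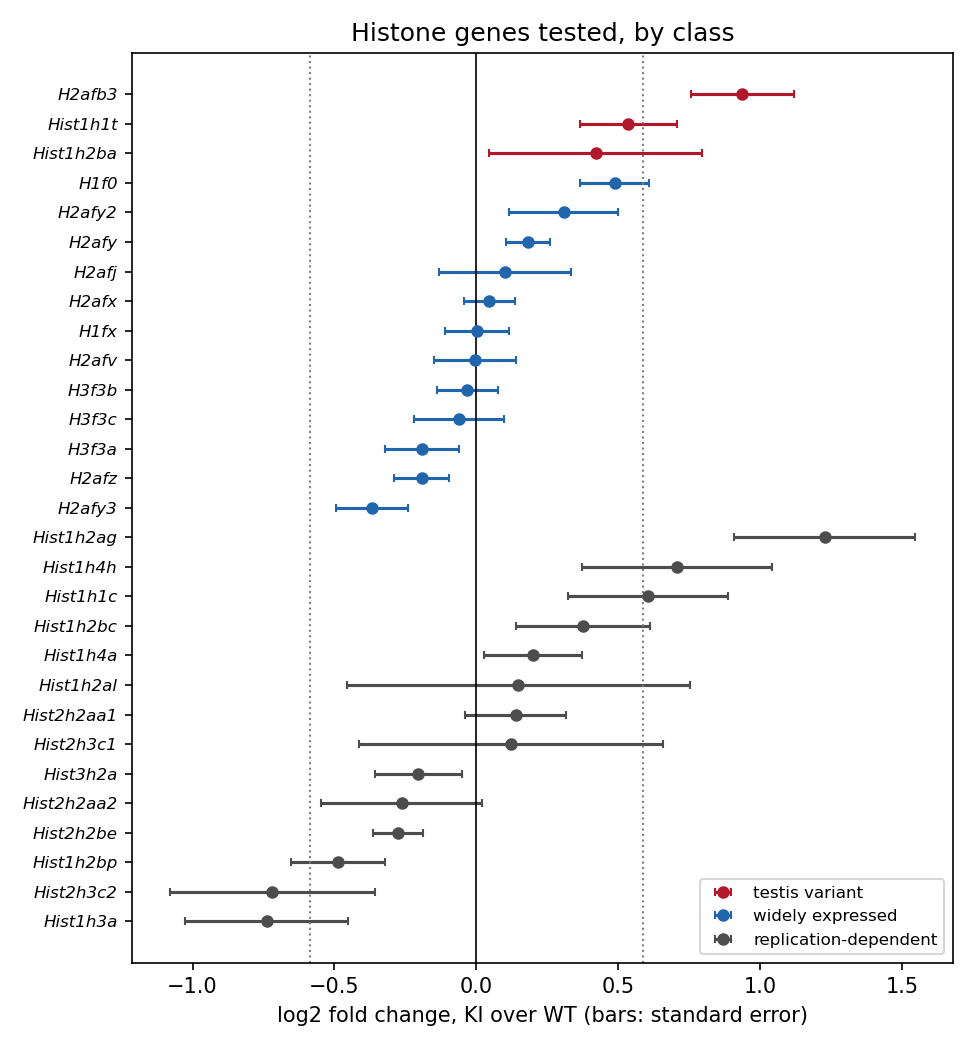
Log2 fold change of KI over WT for the 29 tested histone genes, with bars of 1 standard error, coloured by class; dotted lines mark 1.5-fold. Hist1h2ag (1.23) and H2afb3 (0.94) have the highest values and Hist1h3a (-0.74) the lowest.

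The 3 testis variants had a median log2 fold change of 0.54, and each had a positive value under every scaling. Their summed normalized counts were 109 to 170.4 in WT libraries and 226 to 282 in KI libraries. H2afb3 encodes a short H2A variant of the testis and lies on chromosome X. Its normalized counts were 58.6, 98.3, 62.8, 78.2 and 83.8 in WT libraries 1 to 5 and 151, 184, 153, 146 and 100.3 in KI libraries 1 to 5. H2afb3 rose in KI by 0.94 on the log2 scale (SE 0.18, limma adjusted p = 0.00152). All 5 KI libraries were above all 5 WT libraries, although KI library 5 exceeded WT library 2 by little. Libraries 1 to 3 and libraries 4 and 5 of both genotypes differ in read quality in the study's read statistics. Summed elongating spermatid markers, described below, were 482015 to 576446 in WT libraries 1 to 3 and 351979 and 345421 in WT libraries 4 and 5. In KI libraries 1 to 5 these sums were 101670, 113090, 110567, 103108 and 74929. The part of either difference in the values of single genes was not tested. In libraries 4 and 5 alone the H2afb3 value was 0.58 and was not called (limma adjusted p = 0.178). Of the 50-base windows in its longest GENCODE transcript, 46.8% also occur in another gene, most often H2afb1, so its reads are uncertain.

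Hist1h1t encodes the linker histone H1t of spermatocytes and spermatids. Hist1h1t had normalized counts of 36.6, 48.6, 53.1, 45.1 and 54.6 in WT libraries 1 to 5 and of 55.7, 80.0, 66.9, 61.5 and 83.7 in KI libraries 1 to 5. The lowest KI library was just above the highest WT library. Its log2 fold change was 0.54 (SE 0.17, limma adjusted p = 0.0350), under the fold threshold. Leaving out 1 library gave 0.45 to 0.61, with an adjusted p above 0.05 in 6 of 10 cases and a call in 2, without WT library 5 and without KI library 1.

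Hist1h2ba encodes the testis H2B, TH2B. For Hist1h2ba the WT libraries 1 to 5 held 13.6, 15.0, 10.9, 45.1 and 32.0 normalized counts and the KI libraries 1 to 5 held 21.2, 17.4, 23.7, 40.4 and 42.3. Libraries 4 and 5 were high in both genotypes, and the groups overlapped. The log2 fold change of Hist1h2ba was 0.42 (SE 0.38, limma adjusted p = 0.477), with 0.21 to 0.70 leaving out 1 library. It was 0.62 in libraries 1 to 3 alone and 0.12 in libraries 4 and 5 alone. Of the 50-base windows in its longest transcript, 38.2% also occur in another gene, most often Hist1h2bj, so its reads are uncertain.

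**Figure D2:**
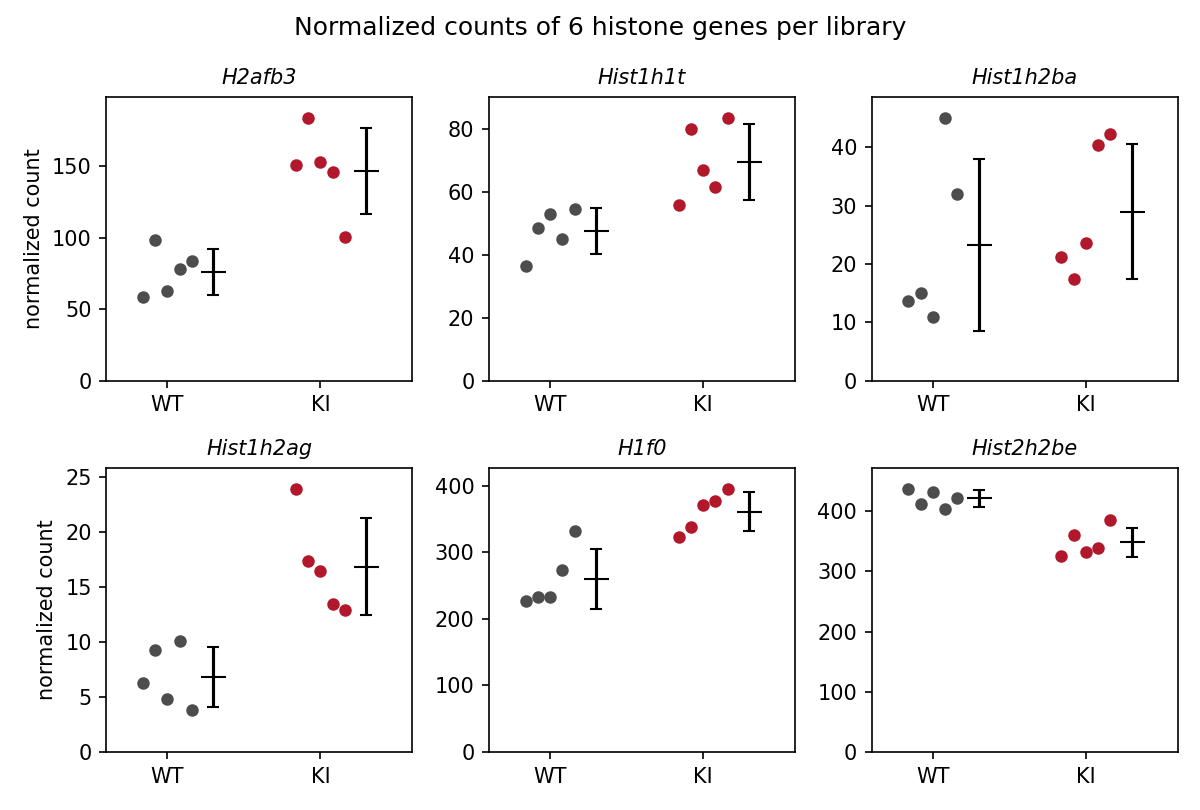
Normalized counts of 6 histone genes in each of 5 WT and 5 KI libraries (points), with the mean and standard deviation beside each group. H2afb3, Hist1h1t and Hist1h2ag show no overlap with KI higher, and Hist2h2be shows none with KI lower.

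Among the 12 widely expressed variants, 0 were called in either direction, against 6.13% higher and 8.22% lower over all tested genes, 6 had positive and 6 negative values, and the median log2 fold change was -0.0011, which became 0.23 when scaled to library totals. H1f0, the linker histone of non-dividing cells, had 227, 232, 233, 274 and 332 normalized counts in WT libraries 1 to 5 and 324, 338, 372, 377 and 396 in KI libraries 1 to 5. WT library 5 was the only WT value inside the KI range. Its log2 fold change was 0.49 (SE 0.12, limma adjusted p = 0.00841), below 1.5-fold. The adjusted p stayed under 0.05 in 10 of 10 cases of 1 library left out, and in libraries 4 and 5 alone the value was 0.36 (limma adjusted p = 0.226).

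The macroH2A genes encode H2A variants with a large added domain. For H2afy the KI to WT change was 0.18 on the log2 scale (SE 0.08, limma adjusted p = 0.107), and every KI library, 1432 to 1636, was above every WT library, 1271 to 1382. H2afy2 had 0.31 (SE 0.19, limma adjusted p = 0.280) and overlaps Aifm2. H2afy3, annotated by GENCODE as a processed pseudogene, had -0.37 (SE 0.13, limma adjusted p = 0.0489) and overlapping groups, with 290 to 400.2 in WT and 214 to 320.2 in KI libraries. Its adjusted p was above 0.05 in 8 of 10 cases of 1 library left out. H2afy3 overlaps Pvt1, and strand was not stated to be used in counting, so both genes' reads are uncertain.

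H3f3a and H3f3b both encode H3.3, the H3 that is deposited outside S phase. Normalized counts of H3f3b averaged 7739 ± 781 in the WT libraries against 7589 ± 927 in the KI libraries (SD, n = 5 each), with a log2 difference of -0.03 (limma adjusted p = 0.873). Those of H3f3a averaged 5732 ± 848 against 5024 ± 781 (SD, n = 5 each), with a log2 difference of -0.19 (limma adjusted p = 0.329). With a replicate block H3f3a had a limma adjusted p of 0.0477, under the fold threshold and not called. H3f3c, a processed pseudogene in GENCODE, shared 73.8% of its windows with other genes, most with H3f3a, and its value of -0.06 is uncertain. H2afz, which encodes H2A.Z, averaged 3060 ± 369 in WT libraries against 2666 ± 171 in KI libraries (SD, n = 5 each), with a log2 difference of -0.19 (limma adjusted p = 0.173). H2afx, H2afv, H2afj and H1fx had log2 differences of 0.05, -0.0047, 0.10 and 0.0024. Per kilobase of GENCODE exon, WT means were 2600.5 for H3f3b, 1723 for H2afz, 1636 for H3f3a, 979 for H1fx and 589 for H2afx. H3f3c, with its shared windows, had 1962. Other genes also share 33.2% of the windows of H2afz, 14.9% for H3f3a, 8.40% for H3f3b and 6.14% for H2afx.

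The 14 tested replication-dependent genes had a median log2 fold change of 0.13, with 8 positive and 6 negative values; it was -0.06 by edgeR, -0.05 by DESeq2 and -0.042 over all 16 genes with no filter. Hist1h2ag, an H2A gene of chromosome 13, had 6.28, 9.25, 4.83, 10.0 and 3.76 normalized counts in WT libraries 1 to 5 and 23.9, 17.4, 16.5, 13.5 and 12.9 in KI libraries 1 to 5. All KI values were above all WT values, at a level of 4 to 27 reads. Hist1h2ag rose by 1.23 on the log2 scale (SE 0.32, limma adjusted p = 0.0112), and in libraries 4 and 5 alone it was 0.97 and not called (limma adjusted p = 0.362). It passed the filter only through the KI libraries, where it is high; with no filter it was called as well (limma adjusted p = 0.0125). Other genes share 78.9% of the 50-base windows of its longest transcript, most often Hist1h2ao, so the value is uncertain.

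Hist2h2be, an H2B gene whose longest transcript shares no window with another gene, had 437, 412, 431, 404 and 423 normalized counts in WT libraries 1 to 5 and 325, 360, 333, 339 and 385 in KI libraries 1 to 5. Every KI library was below every WT library. The log2 fold change was -0.28 (SE 0.09, limma adjusted p = 0.0347), under the fold threshold. Scaled to library totals it was -0.048 (limma adjusted p = 0.676), and the adjusted p was above 0.05 in 8 of 10 cases of 1 library left out.

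Hist1h2bp, another H2B gene, had 944, 1019, 884, 982 and 895 normalized counts in WT libraries 1 to 5 and 732, 798, 909, 639 and 407 in KI libraries 1 to 5. KI library 3 lay within the WT range, and KI library 5 was the lowest. The log2 change of Hist1h2bp was -0.49 (SE 0.17, limma adjusted p = 0.0464), and above 0.05 in 8 of 10 cases of 1 library left out. The value ran from -0.60, called, without KI library 3 to -0.31 without KI library 5. It was -0.88 and called in libraries 4 and 5 alone, -0.23 and not called in libraries 1 to 3 alone, and -0.26 with library totals. Other genes share 45.3% of the 50-base windows of its longest transcript, most often Hist1h2bq, so its reads are uncertain.

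A further 3 replication-dependent genes were called with the libraries paired by number and not in the unpaired fit. The labels do not state such pairs. Hist1h1c, a linker histone gene, had 0.60 (SE 0.28, limma adjusted p = 0.142), and with a replicate block its adjusted p was 0.0291; with library totals it was called as well, at 0.83. Hist1h4h, an H4 gene, had 0.71 (SE 0.34, limma adjusted p = 0.150). With a replicate block its limma adjusted p was 0.0443, and library totals gave a call at 0.93. Leaving out 1 library called Hist1h1c and Hist1h4h in 0 of 10 cases, with 0.43 to 0.80 and 0.51 to 0.895. Libraries 1 to 3 alone gave 0.43 for Hist1h1c and 0.40 for Hist1h4h, and libraries 4 and 5 alone 0.86 and 1.17, without a call. Hist1h3a, an H3 gene, had -0.74 (SE 0.29, limma adjusted p = 0.0794), with 0.0111 under the block and a call in 1 of 10 cases of 1 library left out, which ranged from -0.97 to -0.50. Other genes share 49.5% of the 50-base windows of Hist1h3a, 45.8% for Hist1h4h and 8.54% for Hist1h1c. The reads of Hist1h3a and Hist1h4h are therefore uncertain.

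Hist2h2aa1 and Hist2h2aa2, H2A genes of chromosome 3 to which the deposited table gives 1 merged span, had the highest WT means of the class, 4446 ± 1324 and 2647 ± 1296 (SD, n = 5), with log2 differences of 0.14 and -0.26. Their windows are shared with other genes for 89.4% and 100% of their transcripts, so how reads were divided between them is uncertain. Hist2h2aa2 was -0.86 and called lower in libraries 4 and 5 alone and 0.14 in libraries 1 to 3 alone, and -0.43 to -0.046 leaving out 1 library. Of the 29 members tested over all libraries, libraries 4 and 5 alone called 0 higher, against 3.06% of tested genes, and 2 lower, Hist1h2bp and Hist2h2aa2, against 7.10%. Hist2h3c2, whose span in the table overlaps theirs, had -0.72 (SE 0.36, limma adjusted p = 0.175). Hist1h4a had 0.20 (limma adjusted p = 0.455). Other genes share 63.5% of the windows of Hist2h3c2 and 40.4% of those of Hist1h4a, so their reads are uncertain. Of the rest of the class, Hist1h2bc had 0.38, Hist3h2a -0.20, Hist2h3c1 0.12 and Hist1h2al 0.15, with adjusted p by limma from 0.284 to 0.903. Hist1h2al, a processed pseudogene in GENCODE, varied from 47.1 to 663 normalized counts among WT libraries, and its group means, 223 in WT and 182 in KI libraries, differ the other way. Leaving out 1 library turned the signs of Hist1h2al, from -0.24 to 0.71, and of Hist2h3c1, from -0.12 to 0.44. Hist1h2bq and Hist1h2br have identical values in the table, which gives them 1 merged span, and count as 1 signal. With 0.96 to 22.6 normalized counts they were not tested over all libraries. In libraries 4 and 5 alone they passed the filter only through the WT libraries, where they are high, so their call as lower there is set aside. Hist1h2ag and Hist1h4h passed there only through the KI libraries, and neither was called there.

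The stem-loop letters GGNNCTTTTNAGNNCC, searched in the sense strand of GENCODE transcripts, were in 10 of 16 replication-dependent genes, 1 of 3 testis variants and 1 of 12 widely expressed genes, against 0.275% of listed genes. The testis variant was Hist1h1t and the widely expressed gene was H2afx. The 12 tested members with the letters had a median log2 fold change of 0.08 and the 17 without them 0.10. AATAAA was in the last 50 bases of a transcript of 8 of 16 replication-dependent genes, against 75.7% of listed genes. The stem-loop sites of the called gene, the testis linker gene, the variant and the uncalled Hist1h3a, lowest of its class, are shown as DNA letters, with the searched letters in capitals.
Hist1h2ag: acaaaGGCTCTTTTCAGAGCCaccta
Hist1h1t: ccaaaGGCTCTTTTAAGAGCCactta
H2afx: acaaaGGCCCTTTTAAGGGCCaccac
Hist1h3a: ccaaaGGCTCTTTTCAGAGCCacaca
The transcript of Hist1h2ag ends 23 bases after these letters and that of Hist1h1t 185 bases after them.

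RefSeq promoters (GRCm38.p6) were matched for 25 of 31 members. CCAAT, on either strand, was in the promoters of 20 of 25, against 37.4% of all promoters, and TATAAA in 5 of 25, against 13.6%. TGACGTCA was in 3 of 25, all replication-dependent, against 1.79%, and ATTTGCAT in 3 of 25, against 1.74%. The 250 bases before the start of both called genes are shown because these genes rose in KI, with CCAAT and TGACGTCA on either strand in capitals. That of H2afb3 lies at chrX:120313227-120313476 and that of Hist1h2ag at chr13:22042950-22043199, both on the minus strand.
H2afb3: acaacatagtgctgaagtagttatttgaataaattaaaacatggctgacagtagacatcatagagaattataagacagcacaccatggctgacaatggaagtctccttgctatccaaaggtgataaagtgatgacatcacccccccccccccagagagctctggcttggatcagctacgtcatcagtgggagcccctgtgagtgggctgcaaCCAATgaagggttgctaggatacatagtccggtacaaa
Hist1h2ag: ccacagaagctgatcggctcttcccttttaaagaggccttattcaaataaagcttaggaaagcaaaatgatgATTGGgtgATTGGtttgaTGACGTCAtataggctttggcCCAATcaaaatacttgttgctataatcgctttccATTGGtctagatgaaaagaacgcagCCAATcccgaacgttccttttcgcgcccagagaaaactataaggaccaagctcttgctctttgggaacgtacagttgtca

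Counts of calls in the lists that follow stand against 6.13% higher and 8.22% lower over all tested genes. Among histone genes outside the symbol rule, 0 of 14 were called higher and 5 lower, with a median of -0.65. H1fnt, a spermatid linker histone, fell by 1.62 on the log2 scale (limma adjusted p = 4.65e-06). H2al2a fell by 1.64 and 1700024P04Rik fell by 1.89, with every KI library below every WT library for both. H2al1n fell by 0.97 and Hils1 fell by 0.69, with overlapping groups. Leaving out 1 library gave -0.78 to -0.48 for Hils1, whose call was lost without any of WT libraries 1, 2 and 3 and KI libraries 4 and 5. The range for H2al1n was -1.15 to -0.75, with the call lost without WT library 1, 2 or 3 or KI library 4. All 5 transition protein and protamine genes fell, with a median of -2.27 and values from -3.30 for Prm2 to -1.97 for Prm3; Tnp1 had -2.14, Tnp2 -2.27 and Prm1 -2.82.

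Of 31 tested genes for histone RNA processing, 1 was called higher, Zfp473 (0.60), and 2 lower, Ncbp2 (-0.60) and Ppm1a (-1.58), with a median of 0.01. The calls of Zfp473 and Ncbp2 were lost by leaving out WT library 1 or either of KI libraries 4 and 5, with ranges of 0.52 to 0.67 and -0.64 to -0.53 over the libraries left out. Slbp, which encodes the stem-loop binding protein, had -0.23 (limma adjusted p = 0.197). Of 36 histone chaperone genes, 0 were called in either direction. Of 45 DNA replication genes, 0 were called higher and 2 lower, Fen1 (-1.52) and Pole2 (-0.66), with a median of 0.07. Pole2 ranged from -0.78 to -0.50 and lost its call in 8 of 10 cases of 1 library left out, all but WT library 5 and KI library 1. By adjusted p alone, 1 chaperone gene was higher and 1 lower. For RNA processing genes these counts were 1 and 3, and for replication genes 2 and 3. The shares over all tested genes were 9.65% higher and 13.3% lower.

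All 15 elongating spermatid markers fell, with a summed level of 345421 to 576446 in WT libraries and 74929 to 113090 in KI libraries, and Prm2 was their most abundant gene. Those of larger change were Prm2 (-3.30), Tssk6 (-3.02), Prm1 (-2.82), Smcp (-2.74) and Cabs1 (-2.68). All 15 round spermatid markers had negative values, with a median of -0.41; 8 had an adjusted p under 0.05, and 3 of these were called lower, Tssk2 (-1.08), the most abundant, Hook1 (-0.89) and Crem (-0.60). Of 20 spermatocyte markers 14 had negative values and 1 was called lower, Pgk2 (-1.07), and Ldhc was the most abundant. Of 14 spermatogonial markers 2 rose, Ccnd2 (1.39) and Lin28a (0.65), while 5 had negative values, among them Gfra1 (-0.48, limma adjusted p = 0.0202, under the fold threshold), and Dmrtb1 was the most abundant.

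Somatic markers were present in these libraries as well. Of 10 Leydig cell markers 5 rose, led by Fabp3 (0.83) and Insl3 (0.82), the most abundant, with Cyp17a1 (0.70), Hsd3b6 (0.69) and Cyp11a1 (0.69). Of 10 macrophage markers 7 rose, those of larger change being C1qc (0.96), C1qa (0.90), Cd68 (0.82), Csf1r (0.78) and Lyz2 (0.69), and Mrc1 was the most abundant. Of 9 tested peritubular myoid markers 7 rose, among them Col3a1 (1.498), Col1a2 (1.28), Pdgfra (1.22), Col1a1 (1.06) and Des (1.04), and Dcn was the most abundant; the other 2, Myh11 (-0.30) and Tagln (-0.23), had negative values and were not called. Of 9 endothelial and blood markers 3 rose, Vwf (1.05), Hba-a1 (0.74) and Cdh5 (0.66), and Vwf was the most abundant. Of 14 Sertoli cell markers 0 were called and 11 had positive values, and Clu was the most abundant. Summed over its markers, the Leydig list held 12725 to 22027 normalized counts in WT and 18328 to 29986 in KI libraries, and the macrophage list 881 to 1104 normalized counts in WT and 1294 to 1714 in KI libraries. The peritubular myoid list held 810.4 to 1298 normalized counts in WT and 1781 to 2529 in KI libraries, with the groups apart as for macrophages. Endothelial and blood markers summed to 510.5 to 836 normalized counts in WT and 845 to 1710.4 in KI libraries, and Sertoli markers to 10033 to 15939 normalized counts in WT and 10140.3 to 17654 in KI libraries. For round spermatid markers the sums were 51382 to 59772 normalized counts in WT and 31042 to 43946 in KI libraries, for spermatocytes 139052 to 157491 normalized counts in WT and 109794 to 130332 in KI libraries and for spermatogonia 14912 to 19272 normalized counts in WT and 15342 to 19519.9 in KI libraries. Dmrtb1 alone made up 85.8% of the spermatogonial WT sum and Clu 50.7% of that of Sertoli cells. Over all these lists 53 genes were called, and 15 of them lost the call when some library was left out. Among these were Crem, Lin28a, Cyp17a1, Cyp11a1, Hsd3b6, Des, Cdh5 and Hba-a1. The risen macrophage markers Cd14, in 9 of 10 cases, and Cx3cr1, in 4 of 10, were also among them. No listed marker was at 0 in any library. The part of these cell types in the values of H2afb3, H1f0 and the other histone genes was not tested.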

How the data were processed

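RNA-seq signal values for 10 libraries were analysed as the authors deposited them: per the study's methods, reads were aligned to mm10 with STAR, assigned to RefSeq genes by the E/M model of Partek, and scaled with DESeq2. The versions of STAR, Partek and DESeq2 that the authors used are not given in the sources used here. The value of 1 read was found in each library, and 100% of values under 5000 reads came out whole to within 0.1 of a read. Genes passing edgeR's filterByExpr on these reads were tested by limma 3.58.1 with a variance trend on log2(value + 1). Benjamini-Hochberg adjustment was over all 15389 tested genes. The added 1 shrinks fold changes of low genes: Hist1h2ag had 1.23, against 1.35 with 0.1 added. Limma values of low genes were not always the smaller ones. DESeq2 gave 1.31 for Hist1h2ag, and -0.62 for Hist1h3a against -0.74 by limma. edgeR 4.0.16 and DESeq2 1.42.0 on the recovered reads were alternatives, in R 4.3.3, and called 2243 and 2309 genes against 2209 by limma. The labels number the libraries within each genotype and do not state pairs. Deviations of same-numbered WT and KI libraries correlated at 0.306, 0.105, 0.280, 0.216 and 0.462 for numbers 1 to 5. On this ground the replicate block took same-numbered libraries as pairs, a choice made from these same data. Such pairs were not told apart from a split of libraries 1 to 3 against 4 and 5. Best correlated with the KI library of the same number were 4 of 5 WT libraries, and WT library 3 was best correlated with KI library 2.

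Named genes were all testis and widely expressed variants, replication-dependent genes that were called, the 5 with the highest WT mean and the 5 with the largest change, and in other lists the called genes, at most 5, with the most abundant gene of each marker list. Hist1h2bc, Hist1h2al, Hist1h2bq, Hist1h2br, Hist2h3c1, Hist3h2a, Slbp, Gfra1, Myh11, Tagln, Cd14 and Cx3cr1 were also named, chosen after their values were seen. Members and lists were chosen with earlier results of these data known. Transcripts and exon lengths were those of GENCODE vM21, and promoters those of RefSeq. Protein sequences were not used here.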

Additional observations from a re-analysis of the deposited data

Results flagged for a closer look

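In 2 of 52 groups of 5 libraries, 1 library stood far from the others. H2afy had 1636 normalized counts in KI library 4, against 1432 to 1486 in the other KI libraries. H2afz had 2375 normalized counts in KI library 5, against 2679 to 2794 in the other KI libraries. Chance gives such a value in about 1 in 20 groups.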

How the results depend on the processing

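The calls of H2afb3 and Hist1h2ag held in 20 of 21 and 19 of 20 alternatives, though Hist1h2ag passed the main filter only through KI libraries. Both calls were lost in libraries 4 and 5 alone, where H2afb3 was also under 1.5-fold, and kept in libraries 1 to 3 alone. Against 2 members higher and 0 lower, library totals gave 6 higher, and the replicate block gave 4 higher and 1 lower. By adjusted p alone 4 were higher and 3 lower. Libraries 4 and 5 alone gave 0 higher and 4 lower of 31 tested. Of these 4, Hist1h2bq and Hist1h2br are 1 signal that passed the filter only through WT libraries. The shares of all tested genes in these fits are given above. With a mean of at least 100, 1 of 19 members tested was higher, against 401 of 10834 tested genes, and 0 were lower, against 969. The replicate block changed no call of a named member other than Hist1h1c, Hist1h4h and Hist1h3a. Leaving out 1 library gave 2 to 3 members higher and 0 to 1 lower. Over all genes the same fits called 817 to 1020 higher and 1136 to 1300 lower, of 15421 to 15439 tested. Over all genes, 1370 were called with a mean of at least 100 and 3529 by adjusted p alone, against 2209. In the other lists 42 to 52 genes were called leaving out 1 library and 59 with the replicate block, against 53.

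The replication-dependent median, 0.13, was 0.35 with library totals, -0.042 with no filter, -0.055 by edgeR, -0.049 by DESeq2, 0.25 in libraries 1 to 3 alone, -0.22 in libraries 4 and 5 alone, and -0.13 to 0.28 leaving out 1 library. The value for libraries 4 and 5 alone and that with no filter take in 16 genes, with Hist1h2bq and Hist1h2br. Over the 14 genes of the main fit libraries 4 and 5 alone gave -0.20, an alternative chosen after seeing the data. These 14 include Hist1h2ag and Hist1h4h, which passed the filter in libraries 4 and 5 only through the KI libraries. The median of widely expressed genes was 0.23 with library totals, and that of testis variants 0.94 with a mean of at least 100, where 1 gene was tested.

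The signs of some genes that were not called over all libraries turned. Library totals moved all 15389 genes up, by 0.11 to 0.23 with a median of 0.23. With this shift H2afv had 0.22, H2afz 0.037, H3f3a 0.038, H3f3b 0.20 and H3f3c 0.17. Which scaling is right for these genes was not tested. H1fx had -0.0020 with TMM and -0.0009 by edgeR, and H2afv 0.0009 by edgeR and 0.0072 by DESeq2. In libraries 1 to 3 alone H2afv had 0.25, H3f3b 0.032 and Hist2h2aa2 0.14. In libraries 4 and 5 alone H1fx had -0.054, H2afj -0.20, H2afx -0.010, H3f3c 0.024, Hist1h4a -0.14 and Hist2h2aa1 -0.21. Leaving out 1 library, values ranged from -0.058 to 0.078 for H1fx, -0.041 to 0.29 for H2afj, -0.071 to 0.11 for H2afv, -0.076 to 0.036 for H3f3b and -0.18 to 0.052 for H3f3c. The cause of the turns in the other settings was not tested. With 4 to 27 reads, Hist1h2ag is limited by depth, and shared sequence limits most replication-dependent genes.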
